A study of Mus musculus with 18 samples.

Results

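The 40 genes described here encode proteins that drive mitosis and pull sister chromosomes apart, and they were set apart by name from the 25590 genes on the array. The scanner files carry all 40, with Cdk1 under its older name Cdc2a, and where a gene had several probes the brightest over the 18 arrays stands for it. The samples were cells from thymi of C57BL/6 mice, taken 2 weeks after injection of an anti-DLL4 antibody or of an isotype control antibody. DLL4 is a ligand of Notch receptors. Total thymocytes gave 3 anti-DLL4 and 4 control arrays, DN cells (sorted as CD4-CD8-) gave 3 anti-DLL4 and 3 control arrays, and DN1 cells (sorted as CD4-CD8-CD44+CD25-) gave 3 anti-DLL4 and 2 control arrays. Thymi came from 4 mice per antibody, fewer than the 9 arrays of each antibody, so some mice must have given arrays of more than 1 population unless material was pooled. No source ties an array to a mouse, so the fit treats the 18 arrays as independent and p-values measure only the spread between these samples.

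In mitosis, cyclin B with its kinase Cdk1 starts chromosome condensation and spindle assembly, and the spindle checkpoint holds the cell until each kinetochore is attached. The anaphase-promoting complex with its activator Cdc20 then marks securin and cyclin B for destruction, which frees separase to cut cohesin, and the central spindle directs cytokinesis. Transcripts of most of these genes accumulate in G2 and mitosis, so in a bulk sample their level depends in part on how many cells are dividing. In the thymus, DN cells divide as they mature, above all after the pre-T receptor has signalled, and most later thymocytes are small and at rest.

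A level below is log2 of the processed spot signal minus the 75th percentile of its array, so that 1 unit is a doubling. Levels of different genes come from different probes and are not set against each other. A difference is the mean level of the first-named group minus that of the second, and a relative difference is the same value minus the median over all genes tested in that comparison. A gene was called where limma gave a Benjamini-Hochberg adjusted p under 0.05 over all genes tested. All 40 genes passed the filter on dim probes: 39 were well above background on 18 of 18 arrays and Hmmr, a microtubule-binding hyaluronan receptor, on 17.

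The arrays differed widely in brightness, with a 75th percentile between 260.2 (control DN replicate 1) and 4295.4 (anti-DLL4 thymocytes replicate 1). The 4 arrays of slide 3 stood apart for the mitosis genes. They gave the lowest level of their group for 36 of 40 genes in anti-DLL4 DN1 cells, 38 in control DN1 cells, 35 in anti-DLL4 DN cells, against 35 in control DN cells, against 42.6%, 46.6%, 39.4% and 36% of all genes. Their mean levels over the 40 genes were 1.30 (anti-DLL4 DN1), 1.39 (control DN1), 2.01 (anti-DLL4 DN) and 2.31 (control DN), and their group mates lay between 2.61 and 3.64. The anti-DLL4 DN1, control DN1 and anti-DLL4 DN arrays among them were the brightest of their group and the control DN array was the dimmest of its group, and slide 3 held no thymocyte array. What set slide 3 apart was not tested. The median relative differences in DN and DN1 cells and the call in DN cells are therefore also given without it, a choice made after seeing the data. This leaves 2 arrays in each of these groups except control DN1, which keeps 1, and that array is then assumed to vary like the other groups.

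**Figure D1:**
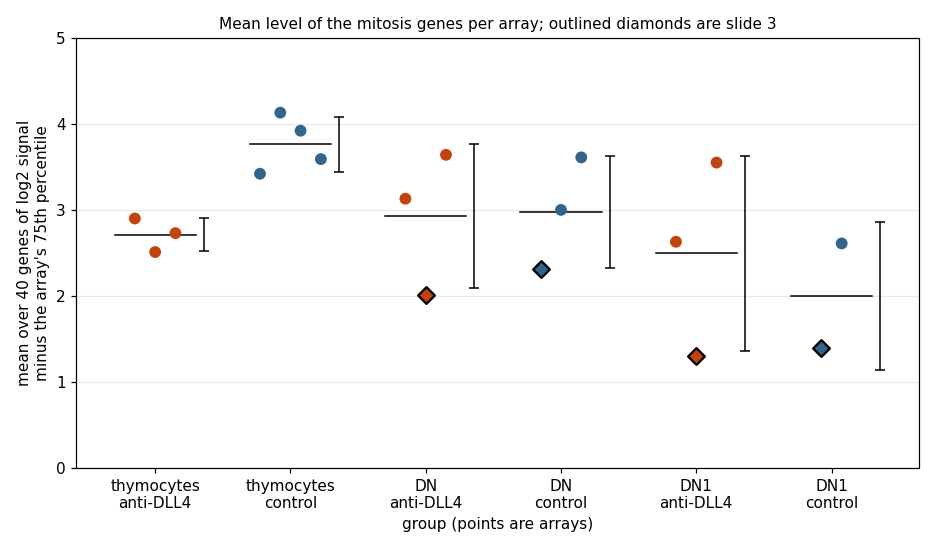
Mean level of the 40 mitosis genes on each array (y axis, log2 signal minus the 75th percentile of the array) by group (x axis). Points are arrays, outlined diamonds are slide 3, lines are group means and bars are 1 SD over arrays. The anti-DLL4 thymocyte arrays lie between 2.51 and 2.90, below the control thymocyte arrays at 3.42 to 4.13, and in the 4 DN and DN1 groups the slide 3 array is the lowest. Measured from the array median of all genes (not drawn), the thymocyte groups overlap, with anti-DLL4 replicate 1 at 5.70 and control replicate 1 at 5.58.

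In thymocytes the mitosis genes were lower on the anti-DLL4 arrays than on the control arrays as a group, although no single gene passed the test. Averaged over the 40 genes, the level was 2.72 ± 0.20 with anti-DLL4, against 3.76 ± 0.32 in controls (SD, n = 3 and 4). Measured from the array median of all genes instead, the means were 5.70, 5.25 and 4.90 on the anti-DLL4 arrays. On the control arrays they were 5.58, 6.89, 6.78 and 6.30, so the groups then overlapped. In bulk samples, fewer dividing cells and less of each transcript per cell cannot be told apart. The difference was below 0 for 38 genes, with a median of -1.10, while all 20919 genes tested had a median of -0.47. The relative difference was below 0 for 34 of the 40 genes, with a median of -0.62. This median was -0.27 without anti-DLL4 replicate 3 and -1.12 with normexp background correction, below 0 under both. Limma called 0 of 40, beside 1.51% of all genes, and 9 had an unadjusted p under 0.05, all of them lower, where 9.75% of all genes were lower at that p. For 18 of the 40, each anti-DLL4 array lay below each control array, and for 0 the reverse held. Among all genes tested, 9.64% were lower and 5.05% higher in this way. This count was added after seeing the data. It was 11 with quantile normalization, where 8.95% of all genes were lower without overlap, 18 on arrays centred on their median, where 14.5% were, and 19 with normexp background correction, where 8.31% were.

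Top2a, topoisomerase II alpha, untangles sister DNA and is part of the mitotic chromosome scaffold. Its levels were 1.33, 0.17 and 1.57 in anti-DLL4 thymocytes, against 4.27, 3.37, 4.05 and 2.83 in control thymocytes. All 3 anti-DLL4 values lay under the lowest control value. The difference was -2.61 ± 0.72 (SE), relative difference -2.13, with a limma adjusted p of 0.0825. Another Top2a probe, well above background on 14 arrays, did not show this, with a difference of 0.18. No array measured the remaining probe above background. The 2 measured probes are printed because they differ. In mm8 the brightest lies at chr11:98812020-98812834 on the minus strand and the other at chr11:98831137-98832164. Both sequences are as the deposited files give them.
Top2a brightest probe: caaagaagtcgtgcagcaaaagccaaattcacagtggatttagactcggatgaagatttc
Top2a other measured probe: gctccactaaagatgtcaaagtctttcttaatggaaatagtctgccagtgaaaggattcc

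Kif11, the motor that pushes spindle poles apart, had levels of 1.93, 1.68 and 2.32 in anti-DLL4 thymocytes and of 4.07, 4.27, 4.02 and 4.12 in control thymocytes. The control values spanned a narrow range and the groups did not overlap. Other Kif11 probes, well above background on 7 and on 4 arrays, gave differences of -0.45 and -1.30. The median of all genes was -0.47. For the brightest probe the difference was -2.15 ± 0.60 (SE), with a limma adjusted p of 0.0883. Over 32 alternatives its relative difference ran from -2.27 to -0.87, and it was called in 2. Without DN1 anti-DLL4 replicate 2, which enters only the shared estimate of the spread, the same comparison gave an adjusted p of 0.0358 by limma. Ccnf, cyclin F, the substrate-binding subunit of an SCF ubiquitin ligase active in G2, had levels of -0.57, -1.23 and -0.64 with anti-DLL4, against 3.06, 1.84, 2.12 and 0.74 in controls. A second Ccnf probe, well above background on 18 arrays, gave a difference of -1.55. For the brightest probe the groups did not overlap, and its difference was -2.75 ± 0.80 (SE), with a limma adjusted p of 0.0986. With slide as a block this adjusted p was 0.0337 by limma, and Ccnf was called in 2 of 32 alternatives. Leaving out slide 3, which held no thymocyte array, kept the relative differences at -1.67 for Kif11 and -2.28 for Ccnf. In this comparison it altered only the shared estimate of the spread, so it adds nothing about the thymocyte values.

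Tpx2, which activates Aurora A on spindle microtubules, had levels of 3.68, 2.67 and 2.57 in anti-DLL4 thymocytes and of 5.71, 5.73, 5.38 and 4.40 in control thymocytes. Its difference was -2.33 ± 0.68 (SE), with a limma adjusted p of 0.0994. Cdc20 had levels of 5.95, 6.10 and 7.18 with anti-DLL4, against of 8.84, 8.23, 7.70 and 7.21 in controls. The highest anti-DLL4 value of Cdc20 lay just under the lowest control value. Kif20a, a kinesin of the central spindle, had levels of 4.23, 4.25 and 4.01 with anti-DLL4, against 4.84, 5.62, 6.22 and 5.58 in controls. The limma adjusted p was 0.18 for Cdc20 and 0.207 for Kif20a, so the separation of their values did not carry them past the threshold.

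Of the 5 genes grouped as cyclins and Cdk1 (counting the ubiquitin ligase subunit cyclin F), 4 lay lower without overlap (Ccnb1, Ccna2, Ccnb2 and Ccnf). The exception was Cdk1 itself. Ccnb1, cyclin B1, had levels of 2.94, 2.75 and 3.48 with anti-DLL4, against 4.45, 4.73, 4.40 and 4.27 in control thymocytes, a difference of -1.41 ± 0.62 (SE). Cdk1 had 0.38, 0.04 and -1.64 with anti-DLL4, against -0.87, 0.43, 0.61 and 0.59 in controls, so that these groups overlapped. Limma gave adjusted p of 0.289 for Ccnb1 and 0.719 for Cdk1. Of the 4 mitotic kinase genes (counting the activator Tpx2), Aurka and Tpx2 lay lower without overlap. Plk1, the polo-like kinase of mitotic entry, had 2.26, 2.63 and 2.01 with anti-DLL4, against 1.64, 3.42, 2.77 and 3.09 in controls, with a limma adjusted p of 0.772.

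Of the 4 spindle checkpoint genes, 0 were without overlap, although all 4 had relative differences below 0, between -1.07 (Ttk) and -0.42 (Bub1 and Bub1b). Bub1, a checkpoint kinase at the kinetochore, had 2.16, 1.13 and 0.64 with anti-DLL4, against 1.23, 3.09, 2.49 and 1.99 in controls. Of the 6 genes grouped under anaphase entry and cohesion release (counting Cdca3), Cdc20, Ube2c and Cdca3 lay lower without overlap. Ube2c is the ubiquitin-conjugating enzyme that works with the anaphase-promoting complex. The 4 genes of the central spindle and cytokinesis had relative differences between -0.98 and -0.10, and Prc1, Kif20a and Ect2 lay lower without overlap. Mki67, the proliferation marker that coats mitotic chromosomes, had 6.11, 5.70 and 6.12 with anti-DLL4, against 7.95, 8.07, 7.32 and 6.65 in controls, with a limma adjusted p of 0.249.

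The 4 kinetochore and centromere genes had a median relative difference of 0.05 in thymocytes. Cenpa, the histone H3 variant of centromeres, had 1.90, 1.09 and 1.16 with anti-DLL4, against 0.57, 2.58, 2.09 and 1.63 in controls. The motor Cenpe alone of these lay lower without overlap. The chromosomal passenger complex had a median of -0.04 over its 3 genes, with Incenp lower without overlap and Birc5 and Cdca8 overlapping. Of the chromosome structure genes, Top2a and the condensin subunit Ncapd2 lay lower without overlap, while for Smc2, the condensin ATPase, different probes gave differences of opposite sign. Of the spindle motor and microtubule genes, Kif11 alone did so, and Kif2c, Kif4, Kif22, Nusap1 and Hmmr overlapped. Pttg1 and Cenph were the 2 genes whose difference was above 0, at 0.74 and 0.56, and were named after their values were seen.

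**Figure D2:**
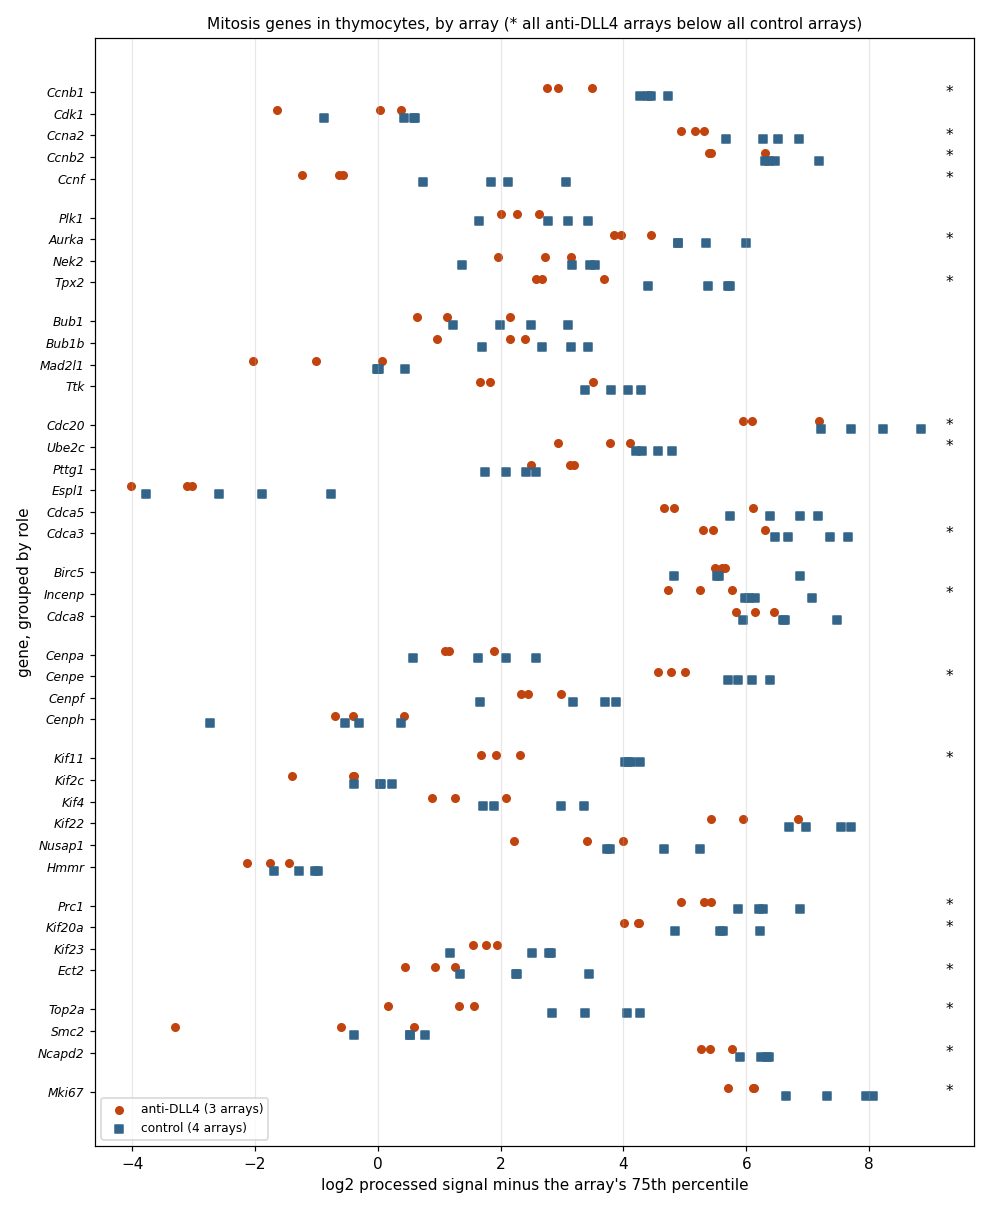
Level of each mitosis gene (rows, grouped by role) on the thymocyte arrays (x axis, log2 signal minus the 75th percentile of the array). Circles are the 3 anti-DLL4 arrays, squares the 4 control arrays, and a star marks the 18 genes whose anti-DLL4 values all lie below their control values. For Kif11 the circles lie at 1.68 to 2.32 and the squares at 4.02 to 4.27, and for Pttg1 the circles lie mostly to the right of the squares, with overlap.

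Slides 1, 2 and 4 held both thymocyte groups, and within them the mitosis genes did not move alike. On slide 1 the median difference over the 40 genes was -0.48, on slide 2 it was -1.74 and on slide 4 it was -1.02. The median of all genes was -1.33, -0.87 and 0.38 on the same slides, so that the relative medians were 0.85, -0.87 and -1.40. On slides 1 and 2 the anti-DLL4 array was the brighter (75th percentile 4295.4 and 2857, against 524 and 685.9 in the controls) and on slide 4 the dimmer (442.8, against 2169.2 in the control). Top2a, Kif11 and Ccnf had differences below the median of all genes on all 3 slides. For Top2a these were -2.94, -3.20 and -2.48, for Kif11 -2.14, -2.60 and -1.70, and for Ccnf -3.63, -3.07 and -2.76. Without the dimmest array of each thymocyte group (anti-DLL4 replicate 3 and control replicate 1), 30 of the 40 genes lay lower without overlap. Groups of fewer arrays separate more easily by chance, and the share of all genes was not computed for this setting. This count therefore cannot be set against the counts on all thymocyte arrays.

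Markers of other cells moved with the treatment in the same thymocyte arrays. Limma called 6 of 10 B-lineage, 4 of 7 NK and innate lymphoid, 2 of 7 dendritic and 1 of 6 monocyte and macrophage markers higher. It called 0 of 10 markers of the DP and T lineage in either direction. Of these 10, 4 were lower at an unadjusted p under 0.05, where 9.75% of all genes were. The mean level of the B-lineage markers was 0.61 to 2.97 on anti-DLL4 arrays and -2.65 to -1.79 on control arrays. For the DP and T markers it was 3.54 to 4.08 on anti-DLL4 arrays, against 4.28 to 5.44 on control arrays. The part of these shifts in the mitosis values was not tested.

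In DN cells the mitosis genes as a group gave no direction that held across scalings, and Pttg1 alone was called. Averaged over the 40 genes, the level was 2.93 ± 0.83 with anti-DLL4, against 2.97 ± 0.66 in controls (SD, n = 3 each). The median difference was -0.12, and since the median of all 20861 genes tested was -0.68, the median relative difference was 0.55, with 33 of 40 above 0. Leaving out 1 array at a time moved it from 0.15 (without control replicate 1) to 1.12 (without anti-DLL4 replicate 2). With quantile normalization it was -0.01, with normexp correction 1.27, without slide 3 0.51, and without the 2 dimmest control arrays (replicates 1 and 2) -0.40, a value that sets the anti-DLL4 arrays against 1 control array. Limma called 1 of 40, beside 4.31% of all genes. The 3 anti-DLL4 arrays were all brighter than the 3 control arrays, with 75th percentiles of 741.3 to 1076.8 against 260.2 to 675.5, so brightness and treatment cannot be told apart here.

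Pttg1 encodes securin, which holds separase inactive until anaphase. Its levels were 3.12, 4.04 and 2.90 in anti-DLL4 DN cells, against 0.66, 1.44 and 2.28 in control DN cells. All 3 anti-DLL4 values lay above the highest control value. The difference was 1.89 ± 0.51 (SE), relative difference 2.57, and the limma adjusted p was 0.0477. The second Pttg1 probe, well above background on 18 arrays like the first, gave a difference of 1.88. The call held in 11 of 32 alternatives, with limma adjusted p from 0.00922 to 0.738 over all of them, and the relative difference stayed above 0 throughout, from 1.42 to 3.15. It did not hold without slide 3 (limma adjusted p 0.443), with slide as a block (0.0767) or without the 2 dimmest control arrays (0.738), where 1 control array is left and the spread comes from the other groups. Leaving out 1 array at a time, the call was kept without anti-DLL4 thymocytes replicate 3, control thymocytes replicate 1, anti-DLL4 DN1 replicate 1 or control DN replicate 3, and lost without any of the other 14. In thymocytes Pttg1 had 3.13, 3.20 and 2.49 with anti-DLL4, against 1.74, 2.58, 2.41 and 2.08 in controls, with overlap, and in DN1 cells 3.20, 3.78 and 2.90 with anti-DLL4, against 2.62 and 2.34 in controls, without overlap. Neither was called by limma, with adjusted p of 0.474 and 1. The 2 probes, printed because they gave nearly the same difference, lie in mm8 at chr11:43263722-43263781 and chr11:43264643-43266329 on the minus strand.
Pttg1 brightest probe: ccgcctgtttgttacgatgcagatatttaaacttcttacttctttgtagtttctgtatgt
Pttg1 second probe: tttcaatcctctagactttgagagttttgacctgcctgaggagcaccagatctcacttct

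Cenpa also lay higher without overlap in DN cells, with 1.76, 1.12 and 2.08 with anti-DLL4, against 0.16, 0.49 and 0.85 in controls. Its difference was 1.15 ± 0.56 (SE), and its limma adjusted p of 0.173 missed the threshold. Pttg1 and Cenpa were the 2 of 40 genes higher without overlap, where 9.64% of all genes were, and 0 were lower, where 22.8% of all genes were. Ccnb1 had 3.24, 1.85 and 3.79 with anti-DLL4, against 3.75, 3.95 and 4.42 in control DN cells, and its relative difference was -0.40. Cdk1, the partner of cyclin B1, had 1.09, -0.45 and 0.94 with anti-DLL4, against -1.42, -0.45 and 0.54 in controls, a relative difference of 1.65. Limma adjusted p was 0.274 for Ccnb1 and 0.444 for Cdk1, and their groups overlapped. The unshifted differences of these probes were -1.07 and 0.97, and another probe of each gene gave the opposite sign, 0.36 for Ccnb1 and -0.02 for Cdk1. Among 22 genes with several measured probes, the probes differed in sign for 9 in DN cells, Top2a included, and for 7 in DN1 cells, among them Cdk1, Kif11, Mki67 and Top2a.

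Top2a and Kif11, which had the smallest p in thymocytes, overlapped between the groups in DN cells. Top2a had 0.53, 0.08 and 1.69 with anti-DLL4, against 1.98, 1.23 and 1.31 in control DN cells. Kif11 had 2.51, 0.98 and 2.62 with anti-DLL4, against 2.18, 2.93 and 2.68 in controls. Their relative differences were -0.06 and 0.11, and the slide 3 array was the lowest anti-DLL4 value of both. Of the other role genes, Cdc20 had a relative difference of 0.00, Mki67 of 0.25, Plk1 of 0.66 and Bub1 of 0.85, with limma adjusted p between 0.451 and 0.989. By role, the median relative difference ran from 0.25 (Mki67 alone) to 1.25 (kinetochore and centromere). Markers of B cells moved here too: limma called 9 of 10 higher, with mean levels of 3.55 to 4.68 with anti-DLL4, against -1.01 to -0.07 in controls, and called 4 of 7 NK, 5 of 7 dendritic and 3 of 6 monocyte and macrophage markers higher. It called 2 of 10 DP and T markers and 1 of 7 markers of the DN2 and DN3 stage lower. At an unadjusted p under 0.05, 8 of the DP and T markers were lower, where 22.7% of all genes were. Of 4 erythroid markers it called 0, and 4 were lower at that p. Their part in the mitosis values was not tested.

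In DN1 cells no mitosis gene passed the test. Averaged over the 40 genes, the level was 2.49 ± 1.13 with anti-DLL4, against 2.00 ± 0.86 in controls (SD, n = 3 and 2). The difference was above 0 for 33 of 40 genes, and its median was 0.54, beside -0.01 for all 21958 genes tested. None was called by limma (0 of 40, beside 0.0956% of all genes), and 0 had an unadjusted p under 0.05, where 4.69% of all genes did. The smallest unadjusted p belonged to Cenpf, a kinetochore protein of G2 and mitosis, which had 4.03, 1.52 and 3.58 with anti-DLL4, against 1.11 and 1.76 in controls. Its difference was 1.61 ± 0.83 (SE), and the anti-DLL4 array on slide 3 lay between the controls. Cenpa had 1.56, 1.54 and 2.64 with anti-DLL4, against 0.40 and 1.11 in controls, without overlap. Pttg1 and Cenpa were the 2 genes higher without overlap, where 8.65% of all genes were, and 0 were lower, where 8.88% were.

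Mki67 had 7.05, 5.39 and 6.77 in anti-DLL4 DN1 cells, against 4.75 and 5.99 in control DN1 cells. Prc1, which bundles central spindle microtubules, had 5.56, 4.06 and 6.21 with anti-DLL4, against 3.40 and 5.12 in controls, and Ttk, the checkpoint kinase, had 2.69, 0.88 and 3.41 with anti-DLL4, against 0.52 and 1.79 in controls. In each case the slide 3 array was the lowest of its group. Relative differences of the other role genes were 1.09 for Plk1, 1.04 for Bub1, 0.54 for Kif11, 0.32 for Cdk1, 0.24 for Cdc20, 0.19 for Ccnb1 and -0.10 for Top2a. Limma gave an adjusted p of 1 for every one of these. Within slide 3 the median difference over the 40 genes was -0.06, with 22 below 0, and within slide 5 it was 0.94, with 1 below 0. Leaving out 1 array at a time moved the median relative difference between -0.03 and 1.19, and without slide 3 it was 0.43. Limma called 0 of the 10 DP and T and 0 of the 10 B-lineage markers in DN1 cells. Of 10 DP and T markers, 7 were lower at an unadjusted p under 0.05 (2.37% of all genes) and 8 lower without overlap (8.88% of all genes). Their mean levels were 0.08 to 1.61 on anti-DLL4 arrays, against 2.60 to 3.16 on control arrays. Of 10 B-lineage markers, 4 were higher at that p (2.31% of all genes) and 6 higher without overlap (8.65% of all genes). Their mean levels were 3.29 to 4.30 on anti-DLL4 arrays, against 1.09 to 1.87 on control arrays. Median relative differences were -1.44 for monocyte and macrophage, -0.79 for NK, -0.15 for dendritic and -4.91 for neutrophil markers. They were -1.37 for markers of the DN2 and DN3 stage and 2.03 for erythroid markers, and limma called 0 in each of these lists. The part of all these markers in the mitosis values of DN1 cells was not tested.

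**Figure D3:**
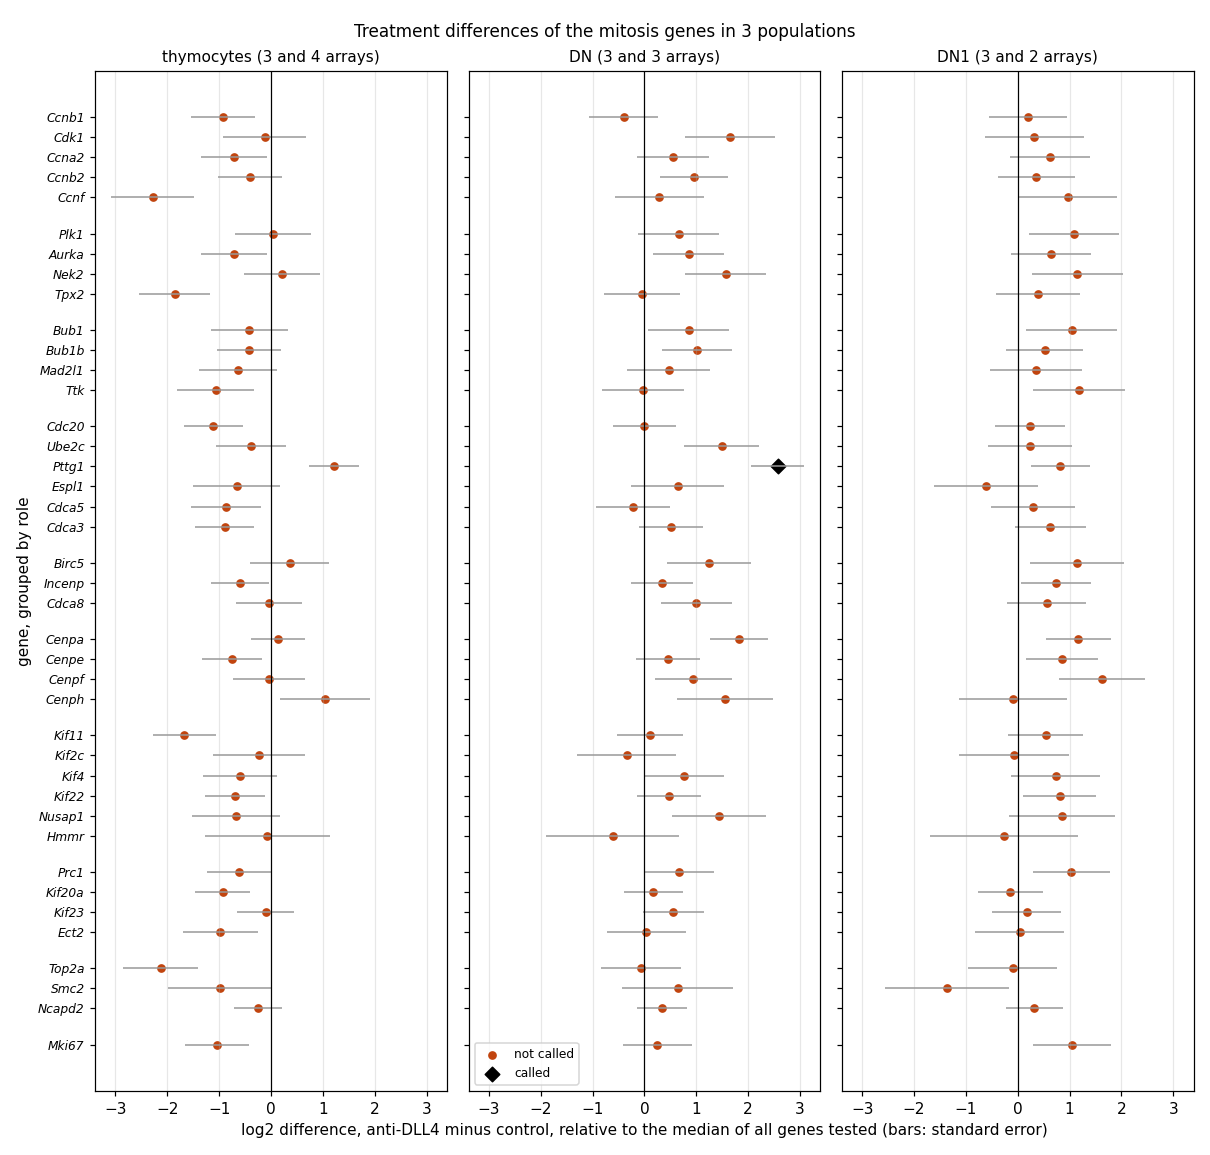
Relative log2 difference (x axis, anti-DLL4 minus control, relative to the median of all genes tested) of each mitosis gene (rows, grouped by role) in thymocytes, DN and DN1 cells. Points are estimates, bars are standard errors of the limma fit and the diamond is the called gene. In thymocytes 34 of 40 points lie below 0, in DN and DN1 cells 33 of 40 above 0, and Pttg1 in DN cells is the called gene.

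Whether the treatment difference itself differed between populations was tested gene by gene. The difference in DN1 cells minus that in thymocytes was above 0 for 39 of 40 genes, with a median of 1.55, beside 0.45 for all genes. Limma called 0 of 40, beside 0.119% of all genes. The relative value was above 0 for 36 of the 40, with a median of 1.10. Leaving out 1 array at a time moved that median between 0.46 and 1.82. At an unadjusted p under 0.05 there were 10, all higher, where 3.48% of all genes were. Ccnf (3.71 ± 1.24, SE), Kif11 (2.68 ± 0.94), Mki67 (2.55 ± 0.97), Tpx2 (2.72 ± 1.06), Ttk (2.72 ± 1.15) and Cenpe (2.06 ± 0.91) had the smallest p, with limma adjusted p of 0.461 to 0.685. The difference in DN cells minus that in thymocytes had a median relative value of 1.40, which was 0.26 without the 2 dimmest control DN arrays and 2.81 with normexp correction. There limma called 0 of 40, beside 0.0224% of all genes, with 0 at an unadjusted p under 0.05, where 8.36% of all genes were. The smallest p belonged to Ccnf, Cenpa, Kif11, Top2a, Ube2c and Pttg1, with values between 1.15 ± 0.70 (SE, Pttg1) and 2.37 ± 1.17 (SE, Ccnf). DN1 cells minus DN cells gave a median relative value of 0.01, but it had no stable sign. It was -0.94 with normexp correction (39 of 40 below 0) and 0.67 with quantile normalization (7 below 0), and leaving out 1 array moved it between -0.61 and 0.66. In that comparison limma called 0 of 40, beside 0.212% of all genes, with 0 at an unadjusted p under 0.05, where 12.2% of all genes were. Ttk (1.87 ± 1.19, SE) had the smallest p, followed by Mki67, Pttg1, Ccnb1, Cenpf and Incenp.

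Between the control populations, DN cells were set against thymocytes. The relative difference was below 0 for 40 of 40 genes, with a median of -1.11, which ran from -1.56 to -0.64 on leaving out 1 array at a time. Without the 2 dimmest DN control arrays, which leaves 1 control DN array, it was -0.07. Limma called 0 of 40, beside 1.28% of all genes, and 3 were lower at an unadjusted p under 0.05, where 7.92% of all genes were. Top2a had 1.98, 1.23 and 1.31 in control DN cells, against 4.27, 3.37, 4.05 and 2.83 in control thymocytes, a difference of -2.12 ± 0.72 (SE) with a limma adjusted p of 0.134. Kif11 had 2.18, 2.93 and 2.68 in control DN cells, against 4.07, 4.27, 4.02 and 4.12 in control thymocytes, a difference of -1.52 ± 0.60 (SE) with a limma adjusted p of 0.175. The groups did not overlap for either gene. Cenpa, Ect2, Ube2c and Cenpe followed, with differences of -1.44 to -1.02. Among the sorting markers, limma called Cd8a lower in control DN cells than in control thymocytes (-3.77 ± 0.88, SE, adjusted p 0.0483). Cd8b1 had a difference of -1.83 ± 0.80 (SE), with a limma adjusted p of 0.211. Cd4 had a difference of 0.69, with -0.75, -2.68 and -3.29 in control DN cells. In control thymocytes it had -2.43, -3.34, -3.13 and -2.82, so the groups overlapped. The Cd4 value of -0.75 came from control DN replicate 1, the dimmest array of its group.

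With anti-DLL4, DN cells minus thymocytes gave a median relative difference of 0.24, between -0.07 and 0.53 on leaving out 1 array. Limma called 0 of 40, beside 0.263% of all genes, with 1 at an unadjusted p under 0.05, where 7.31% of all genes were. That gene was Hmmr, with -2.83, -8.11 and -2.70 in anti-DLL4 DN cells, against -1.45, -1.76 and -2.13 in anti-DLL4 thymocytes, and the array at -8.11 is the slide 3 one. Kif2c, Ccnf, Mad2l1, Nusap1 and Bub1b followed, with differences of -1.34 to 1.20. Control DN1 cells minus control DN cells gave a median difference of -1.20, beside -0.78 for all genes. The median relative difference was -0.42, which normexp correction turned to 0.16, and leaving out 1 array moved it between -1.03 and 0.32. Limma called 0 of 40, beside 1.36% of all genes, with 9 lower at an unadjusted p under 0.05, where 15% of all genes were. Ncapd2 had 4.62 and 4.80 in control DN1 cells, against 5.39, 6.62 and 6.70 in control DN cells, with a limma adjusted p of 0.179. Cdc20, Cdca3, Cdca5, Kif22 and Mki67 followed, with differences of -2.06 to -1.70. Of the markers of the gate, limma called Cd44 higher in control DN1 than in control DN cells (2.38 ± 0.52, SE, adjusted p 0.0341). Il2ra, which encodes CD25, had a difference of -2.69 ± 0.79 (SE) there, with a limma adjusted p of 0.122. With anti-DLL4 the same comparison gave 0.15 ± 0.46 (SE) for Cd44 and -0.53 for Il2ra, each with a limma adjusted p of 0.997. Between control DN1 and control DN cells, 15 of the 40 genes were lower without overlap, where 26.5% of all genes were. In this control comparison 2 were higher without overlap, where 11.5% of all genes were. On arrays centred on their median, 0 were lower without overlap, where 20.5% of all genes were. With anti-DLL4 the median relative difference of DN1 minus DN was -0.32, between -0.96 and 0.25 on leaving out 1 array and -0.72 with normexp correction. No gene of the 40 was called by limma, beside 0.00471% of all genes, and 0 had an unadjusted p under 0.05, where 4.05% of all genes did. Ncapd2, Cdca3, Cdc20, Ccnb2, Smc2 and Cdca8 had the smallest p.

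Within groups the levels of most mitosis genes varied together from array to array. For each gene, the deviations from the group means over 18 arrays were set against the mean deviation of the other 39. The median correlation was 0.82, and 37 of 40 genes exceeded 0.6, while the median of 22837 other genes was -0.06. Prc1 (0.96), Ect2 (0.94) and Cenpe (0.94) stood at the top. Pttg1 (-0.20), Smc2 (0.23) and Espl1 (0.43), which encodes separase, stood at the bottom. The arrays share slides and differ in brightness, and without slide 3 the median was 0.56 over 14 arrays, with 17 genes above 0.6. On arrays centred on their median it was 0.89 for the mitosis genes and 0.15 for other genes, and Pttg1 had 0.44. These correlations are a description of the arrays.

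The promoters are shown because many cell cycle genes of late phases carry a CHR element (TTTGAA) with CCAAT boxes, through which the DREAM and MuvB complexes and NF-Y act. RefSeq windows of 300 bases (250 before the gene start and 50 after it, GRCm38.p6) were listed for 36 of the 40 genes, and Ccna2, Incenp, Kif20a and Tpx2 had none. Of these 36 genes, 27 held TTTGAA on either strand, 30 held CCAAT on either strand and 25 held both in 1 window. Counted by window, 76.3% of 38 mitosis windows held TTTGAA, against 17.9% of all 32851 listed windows, and 84.2% held CCAAT, against 37.4%. Both motifs stood in 71.1% of mitosis windows and in 6.95% of all windows. The E2F-type letters TTTCCCGC were in 0 mitosis windows (1.1% of all windows) and TTTGGCGC in 1 (0.5% of all windows), each searched on both strands. In 1 case a CHR and a CCAAT match overlapped. The mitosis windows had a median of 58.3% G and C, against 52.7% in all windows, and a match is a run of letters and no measured binding.

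**Figure D4:**
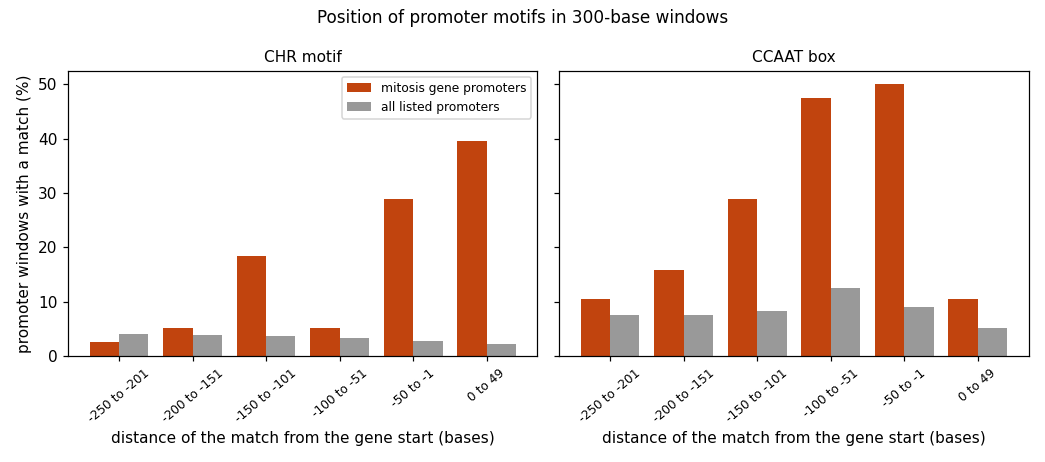
Share of promoter windows (y axis, percent) with a match to TTTGAA (CHR, left) or CCAAT (right) by the distance of the match from the gene start (x axis, bases, in 50-base steps). Bars compare the 38 windows of mitosis genes with all 32851 listed windows. In mitosis genes TTTGAA is most frequent from the start to 49 bases after it (39.5%, against 2.25% of all windows) and CCAAT in the 50 bases before it (50%, against 9.03%).

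The first 5 promoters belong to the genes with the smallest unadjusted p in DN cells (Pttg1, Cenpa, Ccnb1, Cdca5 and Nek2), and those of Top2a and Kif11, which led in thymocytes, were chosen after their values were seen. Capitals mark TTTGAA or CCAAT on either strand, and each sequence reads 5′ to 3′ along its gene. In GRCm38.p6 they lie at chr11:43425932-43426231 on the minus strand (Pttg1), chr5:30666636-30666935 on the plus strand (Cenpa), chr13:100786437-100786736 on the minus strand (Ccnb1), chr19:6084847-6085146 on the plus strand (Cdca5), chr1:191821223-191821522 on the plus strand (Nek2), chr11:99024140-99024439 on the minus strand (Top2a) and chr19:37376132-37376431 on the plus strand (Kif11). Pttg1 held neither motif in this window, and neither did Birc5, Mad2l1 and Nusap1. Smc2 held both motifs. The correlations with the other mitosis genes were -0.20 (Pttg1), 0.80 (Birc5), 0.79 (Mad2l1), 0.86 (Nusap1) and 0.23 (Smc2). Any relation between motifs and these correlations was not tested. Top2a held 2 CHR and 6 CCAAT matches.
Pttg1: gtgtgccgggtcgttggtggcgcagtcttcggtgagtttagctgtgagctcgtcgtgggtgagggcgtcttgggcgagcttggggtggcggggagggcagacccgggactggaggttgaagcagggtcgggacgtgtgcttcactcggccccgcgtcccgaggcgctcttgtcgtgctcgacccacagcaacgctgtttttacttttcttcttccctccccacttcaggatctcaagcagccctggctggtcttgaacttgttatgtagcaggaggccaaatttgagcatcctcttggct
Cenpa: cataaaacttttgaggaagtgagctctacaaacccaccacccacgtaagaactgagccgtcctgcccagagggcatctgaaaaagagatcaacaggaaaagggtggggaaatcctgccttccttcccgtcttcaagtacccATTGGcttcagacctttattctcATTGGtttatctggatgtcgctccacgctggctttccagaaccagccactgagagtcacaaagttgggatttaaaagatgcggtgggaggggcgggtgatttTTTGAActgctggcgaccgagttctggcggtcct
Ccnb1: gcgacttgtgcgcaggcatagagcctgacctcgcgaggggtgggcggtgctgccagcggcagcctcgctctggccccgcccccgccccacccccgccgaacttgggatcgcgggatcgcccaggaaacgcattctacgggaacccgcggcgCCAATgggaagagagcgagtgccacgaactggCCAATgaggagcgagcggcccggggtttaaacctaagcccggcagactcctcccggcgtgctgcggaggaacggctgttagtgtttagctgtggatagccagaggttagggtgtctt
Cdca5: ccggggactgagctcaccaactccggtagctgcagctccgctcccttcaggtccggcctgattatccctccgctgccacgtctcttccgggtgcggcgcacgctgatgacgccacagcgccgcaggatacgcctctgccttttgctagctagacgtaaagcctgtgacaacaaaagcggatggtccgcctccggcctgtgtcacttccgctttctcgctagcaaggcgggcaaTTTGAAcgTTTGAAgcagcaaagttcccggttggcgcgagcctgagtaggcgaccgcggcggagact
Nek2: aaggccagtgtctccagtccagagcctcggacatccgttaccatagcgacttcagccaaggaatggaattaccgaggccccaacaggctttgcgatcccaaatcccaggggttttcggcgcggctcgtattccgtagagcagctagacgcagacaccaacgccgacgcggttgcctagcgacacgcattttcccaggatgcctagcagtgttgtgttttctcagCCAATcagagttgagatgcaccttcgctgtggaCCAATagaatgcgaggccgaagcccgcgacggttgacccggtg
Top2a: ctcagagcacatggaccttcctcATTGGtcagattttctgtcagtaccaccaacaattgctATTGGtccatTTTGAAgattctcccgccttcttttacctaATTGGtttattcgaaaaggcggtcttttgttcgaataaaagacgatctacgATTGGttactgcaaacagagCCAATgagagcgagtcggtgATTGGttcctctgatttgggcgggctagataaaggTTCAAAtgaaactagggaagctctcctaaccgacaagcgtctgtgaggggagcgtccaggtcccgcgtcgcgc
Kif11: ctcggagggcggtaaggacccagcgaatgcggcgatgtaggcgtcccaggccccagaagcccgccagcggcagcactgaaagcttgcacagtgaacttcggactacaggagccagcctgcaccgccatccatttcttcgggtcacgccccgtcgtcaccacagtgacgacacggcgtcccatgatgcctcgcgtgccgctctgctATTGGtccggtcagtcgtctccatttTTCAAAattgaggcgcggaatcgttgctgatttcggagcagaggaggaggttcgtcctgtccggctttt

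Genes of the same pathway outside the 40 were described from lists. Of 94 other mitosis genes on the array, limma called 1 lower in thymocytes, beside 0.387% of all genes lower. At an unadjusted p under 0.05, 17 were lower, where 9.75% of all genes were. The called gene was Cenpo, a kinetochore protein, with 3.30, 2.57 and 3.79 in anti-DLL4 thymocytes, against 5.93, 5.19, 4.84 and 4.41 in control thymocytes. Its difference was -1.87 ± 0.44 (SE), with a limma adjusted p of 0.0475, and the groups did not overlap. The median relative difference of the 94 genes was -0.46 in thymocytes, 0.75 in DN cells and 0.48 in DN1 cells. For 18 regulators of the DREAM complex and FOXM1 these medians were -0.35, 1.08 and 0.73, and limma called 0 in each population, with 6, 1 and 1 at an unadjusted p under 0.05, where 15.7% of all genes were in thymocytes, 30.7% in DN cells and 4.69% in DN1 cells. For 44 DNA replication genes they were -0.35, 0.33 and 0.16, limma called 0 in each, and 15 were lower at an unadjusted p under 0.05 in thymocytes, 1 in DN cells and 0 in DN1 cells. Of all genes, 9.75% were lower at that p in thymocytes, 22.7% in DN cells and 2.37% in DN1 cells. For 14 G1 cyclins, G1 CDKs and CDK inhibitors the medians were 0.00, 0.71 and 0.05, and limma called 0 in each. Of these, 4, 3 and 0 had an unadjusted p under 0.05 in either direction, where 15.7%, 30.7% and 4.69% of all genes did.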

How the data were processed

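RNA was amplified in 2 rounds and labelled with Cy3, per the labels, and read on 18 one-colour arrays. The deposited spot values are an intensity from Agilent Feature Extraction 9.5.3.1, background-subtracted by the scanner software and, per the file headers, without any scaling across arrays; the submitters' processing notes name version 9.5. The deposited files also give flags of 0 or 1 (well above background, saturated, outlier) and probe positions in mm8. A deposited series table holds a ratio per probe and array, whose centring and scale are not stated in the sources used here; its column medians run from 0.638 to 1.42, and it served as an alternative only. Depth does not apply to arrays, and their number limits the precision. The description names 3 control thymocyte arrays, and the labels give 4, all used.

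From these values log2 intensity minus the array's 75th percentile of non-control spots was computed, leaving out outlier spots. A gene was tested where at least 2 arrays of a comparison held it well above background. A model of 6 group means over 18 arrays was fitted with limma 3.58.1 (lmFit, eBayes) in R 4.3.3, with the package data.table (version 1.17.8), for 10 comparisons, and called genes have a Benjamini-Hochberg adjusted p under 0.05 over all genes tested. P-values are two-sided and belong to the unshifted difference. The fit was tested on simulated data. Slides were read from the array headers; all arrays carry 1 scan day. Probes were named by accession or symbol through the RefSeq gene table of GRCm38.p6, used for names only.

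The genes, lists and tests were chosen with earlier results of these data known. The text names called genes, otherwise the 6 with the smallest unadjusted p, and in treatment comparisons also Ccnb1, Cdk1, Plk1, Bub1, Kif11, Cenpa, Cdc20, Top2a and Mki67; of the other mitosis genes it names those called. Genes named by role in thymocytes beyond this rule, and Cd4, Cd8a, Cd8b1, Cd44 and Il2ra, were chosen after their values were seen. Alternatives covered scaling, background, probe filter, probe choice, blocks and arrays left out.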

Additional observations from a re-analysis of the deposited data

Results flagged for a closer look

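In the group of 4 control thymocyte arrays, 3 of 40 genes had 1 value far from the other 3 by Dixon's criterion. Cdk1 was at -0.87 on replicate 1, below 0.43 to 0.61 on the others. Mad2l1, a checkpoint protein, was at 0.45 on replicate 3, above -0.01 to 0.02 on the others. Incenp, of the chromosomal passenger complex, was at 7.07 on replicate 2, above 5.98 to 6.15. Chance flags about 1 in 20 groups.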

How the results depend on the processing

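No result turned its direction past the threshold under any alternative. For medians that threshold, 0.97, was wider than the medians of the treatment differences themselves, and some medians changed sign within it. The relative median of 0.55 in DN cells was -0.01 with quantile normalization. That of 0.55 in DN1 cells fell to -0.03 on leaving out 1 array. For control DN1 minus control DN cells, -0.42 became 0.16 with normexp correction. Genes called by limma in thymocytes numbered 1 with slide as a block and 2 without slide 3, and 0 to 1 on leaving out 1 array at a time, instead of 0. In DN cells the single call (Pttg1) became 0 when scaled to probes well above background on all arrays, with no filter on dim probes, with slide as a block, with the replicate block, fitted on the compared arrays only, without slide 3 and without the 2 dimmest control arrays, and was 0 to 1 on leaving out 1 array at a time. In control DN cells minus thymocytes, 2 genes (Top2a and Kif11) were called with normexp background, and the median relative difference was -2.12 with it and -0.07 without the 2 dimmest DN control arrays (1 is then left), instead of -1.11. For the DN minus thymocyte treatment effect that median was 2.81 and 0.26 under the same settings, instead of 1.40. The count of genes lower without overlap in thymocytes was 11 with quantile normalization and 30 without the dimmest array of each thymocyte group, instead of 18. The count of 30 rests on fewer arrays, which separate more easily by chance, and has no share of all genes beside it. The replicate numbers were not taken as pairs: same-numbered arrays had correlations of deviations between -0.23 and 0.33, and the replicate block moved the DN call to an adjusted p of 0.0677 by limma. A median was taken as moved only beyond 0.97, the spread of the genes' mean between replicates, which is wide. Of 2464 values for named genes under the alternatives, 6 gained and 21 lost a call, and 77 changed sign with no call in either setting. Settings that drop slide 3 or the dimmest arrays were chosen after seeing the data.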
